A study of Homo sapiens with 6 samples.

Results

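The long intergenic noncoding RNAs (LINC genes) that BT474 breast cancer cells made at a measurable level were described across 3 stably transfected populations. They were chosen by name and by detection: every array probe whose gene name is LINC followed by a number, and which the scanner software marked as well above the local background on both arrays of at least 1 population. This rule gave 593 probes of 390 genes, out of 1658 LINC probes of 838 genes and 58201 non-control probes on the array. BT474 is an estrogen receptor positive, HER2 positive luminal breast cancer line. Cells of this line had been transfected with a pcDNA3.1 plasmid and kept under antibiotic selection before culture without the antibiotic. The Control population (labelled MOCK) carried empty pcDNA3.1, Var1 carried pcDNA3.1 with variant 1 of the long noncoding RNA NR2F1-AS1, and Var4 carried pcDNA3.1 with variant 4. By the paper's methods the backbone was pcDNA3.1/Hygro(+) for variant 1 and pcDNA3.1-P2A-eGFP for variant 4. Backbone and variant therefore cannot be told apart between Var1 and Var4. For Var1 and Var4 the paper describes few surviving cells that grew into colonies, and it does not say this of Control. All 3 were grown in RPMI-1640 medium with heat-inactivated fetal bovine serum, and each was measured on 2 arrays, A and B, of Cy3-labelled total RNA. No source says that A and B came from separate cultures, so the p-values measure only the spread between these arrays, which may be technical.

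A LINC symbol is given to a transcript that lies between protein-coding genes and has no recognised coding sequence. Most are transcribed by RNA polymerase II, capped, spliced and polyadenylated like messenger RNAs, and they are known for low copy number and for expression that is restricted to few tissues. Some act in the nucleus on chromatin or on nearby genes, others in the cytoplasm on proteins, messenger RNAs or microRNAs, and for most no function is known. Several were later found to encode a short protein and lost the LINC name. In the RefSeq gene table for GRCh38.p14, 321 of the 390 gene names were current symbols and 69 were older names, and none was unmatched. Of the 69, 47 were still long noncoding RNAs under another name, 3 were pseudogenes and 19 were protein coding. For those 19 genes, with 30 probes, the label noncoding did not hold.

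Each LINC was read by 60-base probes, so what was measured was a short stretch of a transcript. The probes of the genes on which the results turn are printed first, 5′ to 3′ on the strand of the transcript, with their hg19 position as given with the array design. LINC01197 (now LETR1, described in lymphatic endothelial cells) had 2 detected probes that behaved differently, at chr15:95822542-95822601 and chr15:95799058-95799117 on the minus strand, the first of them nearer the 5′ end.
LINC01197 upstream probe: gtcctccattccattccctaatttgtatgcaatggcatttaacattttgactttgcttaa
LINC01197 downstream probe: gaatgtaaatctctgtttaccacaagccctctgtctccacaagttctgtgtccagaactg
LINC00592 is shown for the same reason. Its probe at chr12:52604745-52604804 (plus strand) begins within the first 50 bases that RefSeq gives as transcribed, and the capitals mark the 19 bases that it shares with the transcribed end of the RefSeq start window. Its probe at chr12:52617464-52617523 ends in AATAAA, the usual signal for polyadenylation, which is in capitals.
LINC00592 start probe: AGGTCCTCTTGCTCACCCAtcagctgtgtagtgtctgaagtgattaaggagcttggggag
LINC00592 downstream probe: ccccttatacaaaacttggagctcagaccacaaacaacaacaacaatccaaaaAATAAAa
LINC00152 (now CYTOR, a cytoplasmic RNA found at high level in many carcinomas) was read by 1 probe, at chr2:87820743-87820802 on the plus strand. LINC01271, a neighbour of the transcription factor gene CEBPB, was read at chr20:48927252-48927311 on the minus strand, and AATAAA is again in capitals.
LINC00152: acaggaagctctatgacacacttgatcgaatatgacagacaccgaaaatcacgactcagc
LINC01271: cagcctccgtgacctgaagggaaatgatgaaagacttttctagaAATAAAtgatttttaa
LINC00312, first described in nasopharyngeal carcinoma, was read at chr3:8615322-8615381 on the plus strand, and LINC00470 at chr18:1269263-1269322 on the minus strand.
LINC00312: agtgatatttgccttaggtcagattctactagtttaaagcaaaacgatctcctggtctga
LINC00470: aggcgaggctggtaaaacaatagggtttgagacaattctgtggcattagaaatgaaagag

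LINC01116, LINC01411, LINC01550 and LINC01091 were read by several probes each, and their sequences show which of these are independent readings. LINC01116, beside the HOXD gene cluster, had 4 probes on the minus strand of chromosome 2. Those at chr2:177494318-177494377 and chr2:177494325-177494384 share the 53 bases in capitals, while those at chr2:177494425-177494484 and chr2:177494668-177494727 share no such stretch with them.
LINC01116 probe 1: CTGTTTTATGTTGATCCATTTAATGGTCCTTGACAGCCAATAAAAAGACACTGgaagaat
LINC01116 probe 2: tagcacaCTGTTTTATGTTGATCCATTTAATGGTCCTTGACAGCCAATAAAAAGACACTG
LINC01116 probe 3: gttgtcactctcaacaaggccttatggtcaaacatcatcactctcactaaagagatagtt
LINC01116 probe 4: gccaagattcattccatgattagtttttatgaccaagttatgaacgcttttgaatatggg
LINC01411 had 3 probes on the plus strand of chromosome 5. Those placed at chr5:173854723-173944790 and chr5:173930955-173944782 cross a splice junction into the same exon, from different upstream exons, and share the 21 bases in capitals. The one at chr5:173953290-173953349 lies within 1 exon.
LINC01411 probe 1: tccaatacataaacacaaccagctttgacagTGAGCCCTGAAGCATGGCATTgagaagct
LINC01411 probe 2: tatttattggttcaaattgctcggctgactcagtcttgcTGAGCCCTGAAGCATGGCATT
LINC01411 probe 3: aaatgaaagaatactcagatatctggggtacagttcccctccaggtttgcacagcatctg
LINC01550 had 6 detected probes on the minus strand of chromosome 14. Those at chr14:98426728-98435642 and chr14:98426710-98435624 cross the same splice junction and share the 42 bases in capitals. Downstream of them lay those at chr14:98425996-98426055, chr14:98424269-98424328, chr14:98399897-98399956 and chr14:98392881-98392940.
LINC01550 probe 1: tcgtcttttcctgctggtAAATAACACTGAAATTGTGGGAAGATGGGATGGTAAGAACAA
LINC01550 probe 2: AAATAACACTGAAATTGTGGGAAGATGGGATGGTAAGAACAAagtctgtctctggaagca
LINC01550 probe 3: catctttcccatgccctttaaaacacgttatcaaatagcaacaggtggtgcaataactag
LINC01550 probe 4: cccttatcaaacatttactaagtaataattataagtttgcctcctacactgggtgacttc
LINC01550 probe 5: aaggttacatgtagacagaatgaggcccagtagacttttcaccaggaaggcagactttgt
LINC01550 probe 6: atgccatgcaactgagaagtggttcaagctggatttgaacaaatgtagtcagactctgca
The 2 probes of LINC01091, at chr4:124851450-124851509 and chr4:124851459-124851518 on the plus strand, share the 51 bases in capitals.
LINC01091 probe 1: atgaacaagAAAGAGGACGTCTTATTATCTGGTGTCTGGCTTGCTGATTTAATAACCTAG
LINC01091 probe 2: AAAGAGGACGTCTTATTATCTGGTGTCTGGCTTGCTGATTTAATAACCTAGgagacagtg
Over all 593 probes, no probe had the sequence of another, 15 pairs of probes of the same gene shared part of their bases, and 39 probes were placed across a splice junction.

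Values were log2 intensities less the 75th percentile of their array, so 0 is the level below which 75% of the array's non-control probes lie. The 2 arrays of a population correlated at 0.993 to 0.996 over all tested probes. All 6 arrays lay on 1 slide, with Control and Var4 in its first column and Var1 in its second, so that the column and the Var1 population cannot be told apart. Control lay in rows 1 and 2 of the slide, and both Var4 and Var1 in rows 3 and 4. The row therefore cannot be told apart from the difference between Control and either variant. Of the 4 NR2F1-AS1 probes, those at chr5:92745544-92745603 and chr5:92746995-92747054 were higher in Var1 than in Control, as labelled. The first, not well above background on either Control array, was at least 15.1-fold higher, and the second, so on 1 Control array, was higher by 3.75 on the log2 scale. The other 2, each well above background on 1 Control array, were higher in Var4 by 6.92 and 7.98. The probe at chr5:92889467-92889526 was also higher in Var1, by 3.36. All 9 luminal epithelial markers were well above background on all 6 arrays. Of 5 fibroblast markers COL1A2, COL3A1 and LUM were so on no array and COL1A1 on all 6, and the summed level of the 5 ran from 1.17 to 1.20 in Control, 1.52 to 1.54 in Var1 and 2.28 to 2.32 in Var4 on the log2 scale. The summed level of 4 leukocyte markers, of which PTPRC and CD14 were well above background on all 6 arrays, ran from 0.18 to 0.42 over the arrays, and that of 3 endothelial markers, of which CDH5 and VWF were, from 0.82 in Var1 to 1.48 in Control. The part of these markers in the LINC results was not tested.

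The share of LINC probes well above background was lower than that of the other probes on each of the 6 arrays. Of the LINC probes, the Control arrays had 35.4% and 39.0% well above background, the Var1 arrays 34.1% and 37.3%, and the Var4 arrays 34.0% and 27.3%. Among the other probes these shares were 54.9% and 58.0%, 53.7% and 56.9%, and 53.6% and 48.3%. The second Var4 array had the lowest share for LINC and other probes alike. On that array the dimmest probe well above background stood at -3.60, against -3.87 to -4.51 on the other 5 arrays, and the part of this limit in the counts for Var4 was not tested.

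**Figure D1:**
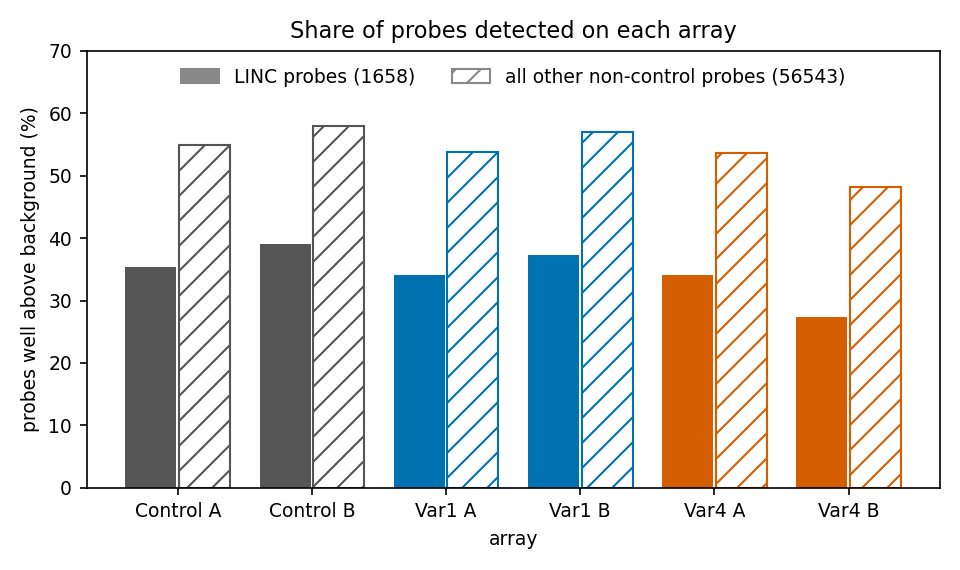
Share of probes marked well above background on each of the 6 arrays, in percent, for the 1658 LINC probes (filled bars) and the 56543 other non-control probes (hatched bars). The LINC bar is the shorter of the pair on every array, and the pair of the second Var4 array is the lowest, at 27.3% and 48.3%.

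Of the 593 detected LINC probes, 425, of 295 genes, were well above background on all 6 arrays. That was 71.7% of them, against 83.9% of all 31863 probes detected by the same rule. Another 62 were detected on both arrays of Control and of Var1 but not of Var4, 63 only in Control, 32 only in Var1 and 2 only in Var4, with 6 in Control and Var4 and 3 in Var1 and Var4. These 168 probes passed through the population where they were bright, so their changes are counted apart from those of the 425. Just inside the rule, with the lowest mean in their brightest population, were LINC00565 at -4.19, LINC01118 at -4.06 and LINC01363 at -4.04. Just outside it, with the highest such mean, were LINC00583 at -2.14, LINC01069 at -2.40 and LINC01514 at -2.60, which were well above background on at most 2 arrays. Of the 1065 LINC probes not detected, 870 were well above background on no array.

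Detected LINC probes were richer in G and C than the others. Their median GC content was 45.0%, against 41.7% for the LINC probes that were not detected and 43.3% for all other non-control probes. The hexamer AATAAA stood in 55 of the 593, or 9.27%, in 139 of the 1065 undetected LINC probes and in 7.73% of all other probes. By chromosome, the share of LINC probes that were detected ran from 15.5% on chromosome 8 to 62.8% on chromosome 19. The genomic position of a probe and its sequence are linked, and the part of probe composition in these shares was not tested.

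Var1 was compared with Control to ask which LINC transcripts differed in the cells carrying variant 1. A probe was called when limma, fitted over the 31863 tested probes of all 6 arrays, gave a change of at least 2-fold and a Benjamini-Hochberg adjusted p under 0.05. By this rule 28 of the 593 LINC probes were called, 25 higher in Var1 and 3 lower, which is 4.72% of them against 3.95% of all tested probes. Over all tested probes 2.79% were called higher and 1.17% lower. Among the 425 on all 6 arrays, 10 were called, 9 higher and 1 lower, or 2.35% against 2.49% of all probes on 6 arrays, of which 1.73% were higher and 0.763% lower. With quantile normalization in place of the 75th percentile, 26 of the 593 were called, 17 higher and 9 lower, and over all tested probes the share of calls that were higher went from 70.5% to 56.7%. At an adjusted p under 0.05 and any size, 92 LINC probes were higher in Var1 and 64 lower, 26.3% of the 593 against 34.4% of all tested probes, and the median log2 change was 0.03 for the LINC probes and -0.04 for all.

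**Figure D2:**
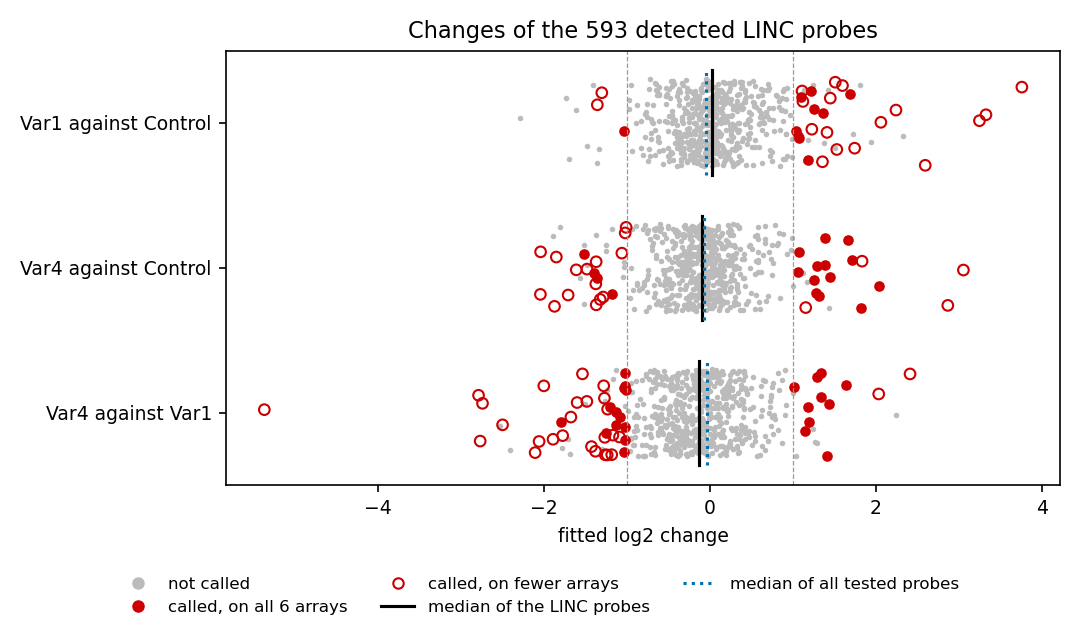
Fitted log2 change of each of the 593 detected LINC probes (points, spread vertically for legibility) in the 3 comparisons, with dashed lines at a 2-fold change. Filled red points were called and well above background on all 6 arrays, open red points were called but well above background on fewer arrays, and the medians of the LINC probes (black) lie between -0.13 and 0.03 and those of all tested probes (blue) between -0.08 and -0.03.

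LINC01197 rose most clearly in Var1. Its upstream probe, printed above, read -2.00 and -2.03 in Control, 1.22 and 1.40 in Var1 and -4.06 on both Var4 arrays. The 3 populations did not overlap, with Var1 highest and Var4 not well above background on either array. Against Control it was 10.0-fold higher in Var1, a log2 change of 3.32 (SE 0.075, limma adjusted p = 0.00154). In a bulk RNA sample fewer cells with a transcript and less of it per cell cannot be told apart.

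The other large rises in Var1 came from dim probes. LINC00934 read -6.49 and -6.76 in Control, -1.90 and -3.83 in Var1 and -5.44 and -5.82 in Var4. LINC00470, the second of these, read -6.19 and -6.48 in Control, -2.98 and -3.20 in Var1 and -6.17 and -5.58 in Var4. For both, only the Var1 arrays were well above background, so the change against Control is a lower bound: the mean of the bright population was set against the dimmest level well above background on each array of the dim one, or the probe's own level where that was higher. LINC00934 was at least 2.85-fold higher in Var1 (fitted log2 change 3.76, SE 0.66, limma adjusted p = 0.0169) and LINC00470 at least 2.45-fold (3.25, SE 0.24, adjusted p = 0.00385). LINC00934 lost its call when either Control array was left out, with a highest adjusted p of 0.0811.

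LINC01524, LINC01204 and LINC01440, which have no well-known function, were likewise well above background only on the Var1 arrays. LINC01440 read -4.49 and -4.52 in Control, -2.64 and -2.25 in Var1 and -4.44 and -4.65 in Var4, at least 3.83-fold higher in Var1 than in Control (limma adjusted p = 0.00404). LINC01204 read -3.25 and -2.42 in Var1 and was at least 2.92-fold higher (adjusted p = 0.00911), and LINC01524, at -3.26 and -2.82, at least 2.54-fold (adjusted p = 0.0332). No Control array reached the Var1 range of these 3. LINC01524 passed the threshold under only 5 of 14 settings, and LINC01204 missed it when a Control array was left out, with a highest adjusted p of 0.0534.

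Among the LINC probes on all 6 arrays the changes in Var1 were smaller. The widest was that of LINC00955, named after its values were seen, which read -3.50 and -3.40 in Control and -1.62 and -1.90 in Var1 (log2 change 1.69, limma adjusted p = 0.00379). LINC00675 (now TMEM238L, a small membrane protein gene) rose from -3.55 and -3.01 to -2.22 and -2.19 (log2 change 1.08, limma adjusted p = 0.0188).

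Called lower in Var1 were 3 LINC probes. LINC00312 read -1.01 and -0.97 in Control, -1.92 and -2.14 in Var1 and -0.60 and -0.58 in Var4. The Var1 arrays were the lowest and Var4 the highest, without overlap, and the log2 change in Var1 was -1.04 (SE 0.090, limma adjusted p = 0.00470). LINC01315 went from -3.25 and -3.00 in Control to -4.32 and -4.64 in Var1, where it was not well above background, and was at least 1.87-fold lower (limma adjusted p = 0.00639). LINC01526 read -3.34 and -3.05 in Control and -4.95 and -4.04 in Var1 (log2 change -1.30, limma adjusted p = 0.0485), and it passed the threshold under 6 of 14 settings. A second probe of LINC01315 and one of LINC01526, on all 6 arrays, had changes of -0.12 and -0.22 that were not called.

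Var4 was compared with Control in the same way, with the same Control arrays. The data called 36 LINC probes of 29 genes, 17 higher in Var4 and 19 lower, which is 6.07% of the 593 against 3.18% of all tested probes. Over all tested probes 1.60% were called higher and 1.58% lower. Among the 425 on all 6 arrays, 17 probes of 13 genes were called, 13 higher and 4 lower, or 4.00% against 2.09% of all probes on 6 arrays, of which 1.39% were higher and 0.699% lower. Of the 168 on fewer arrays, 4 were called higher and 15 lower, or 11.3% against 8.86% of all tested probes on fewer arrays. Over all those tested probes 2.67% were called higher and 6.19% lower. With quantile normalization 33 LINC probes were called, 19 higher and 14 lower, and over all tested probes the higher share of calls went from 50.2% to 61.5%. At an adjusted p under 0.05 and any size, 51 LINC probes were higher and 74 lower, 21.1% of the 593 against 24.2% of all tested probes, and the median log2 change was -0.09 for the LINC probes and -0.08 for all. Without the second Control array the number called was 23.

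LINC00152 and LINC00592 were the clearest rises in Var4, both on all 6 arrays. LINC00152 read -0.21 and -0.11 in Control, 0.34 and 0.41 in Var1 and 1.65 and 1.67 in Var4. The 3 populations did not overlap and stood in that order. It was 3.52-fold higher in Var4 than in Control (log2 change 1.81, SE 0.061, limma adjusted p = 0.00204), and its change in Var1, 0.53, had an adjusted p of 0.00685 but was under 2-fold. LINC00152 has a near-identical copy elsewhere on chromosome 2, the host gene of MIR4435, which the array names MIR4435-1HG. In the 3 probes of that copy the log2 change in Var4 was 0.74, 2.47 and 1.64, the second of them at least 3.63-fold from a Control level that was not well above background. How far the transcripts of the 2 loci cross-hybridise was not tested.

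The downstream probe of LINC00592 read -2.40 and -2.38 in Control, -1.62 and -1.78 in Var1 and -0.35 and -0.37 in Var4. These values also stood in the order Control, Var1, Var4 without overlap. Against Control the probe was 4.09-fold higher in Var4 (log2 change 2.03, SE 0.070, limma adjusted p = 0.00204). The start probe read -2.60 and -2.55 in Control, -2.95 and -2.81 in Var1 and -2.75 and -3.19 in Var4, and was not called.

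LINC01271 read -4.50 and -3.77 in Control, -3.12 and -3.48 in Var1 and -1.10 and -1.43 in Var4. The Var4 arrays stood above all others, and the first Control array was not well above background. The log2 change in Var4 was 2.86 (SE 0.29, limma adjusted p = 0.00803). LINC00675 read -1.46 and -1.69 in Var4, 3.27-fold above Control (log2 change 1.71, SE 0.20, limma adjusted p = 0.0102), and was not called without the first Var4 array, where its adjusted p was 0.0514. LINC00900 and LINC01467 were not well above background in Control. LINC00900 read -2.96 and -2.42 in Var4 and was at least 3.23-fold higher (limma adjusted p = 0.0313), and LINC01467, at -3.06 and -3.02, at least 2.53-fold (adjusted p = 0.0149). LINC00900 lost its call without either Control array or either Var4 array and LINC01467 without the second Control array or either Var4 array, with highest adjusted p values of 0.123 and 0.0707. A second LINC00900 probe, at chr11:115628859-115628918, read 3.89 and 3.84 in Control and 3.89 and 3.78 in Var4, a log2 change of -0.03.

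Smaller rises in Var4 on all 6 arrays, named after their values were seen, were those of LINC01511, LINC01503 and LINC01564. LINC01511 read -1.72 and -1.62 in Control, -0.75 on both Var1 arrays and -0.01 on both Var4 arrays (log2 change in Var4 1.66, limma adjusted p = 0.00204), and its second probe changed by 0.64 (adjusted p = 0.0201). LINC01503, described in squamous cell carcinoma, read -2.14 and -1.89 in Control, a mean of -1.14 over the 2 Var1 arrays and -0.70 and -0.56 in Var4 (log2 change 1.38, limma adjusted p = 0.00792). LINC01564 rose by 1.25 in Var4 (adjusted p = 0.0105). In Var1 the called LINC01511 probe and those of LINC01503 and LINC01564 stood 0.92, 0.87 and 0.93 above Control, between Control and Var4 and under 2-fold (adjusted p = 0.00330, 0.0139 and 0.0132).

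**Figure D3:**
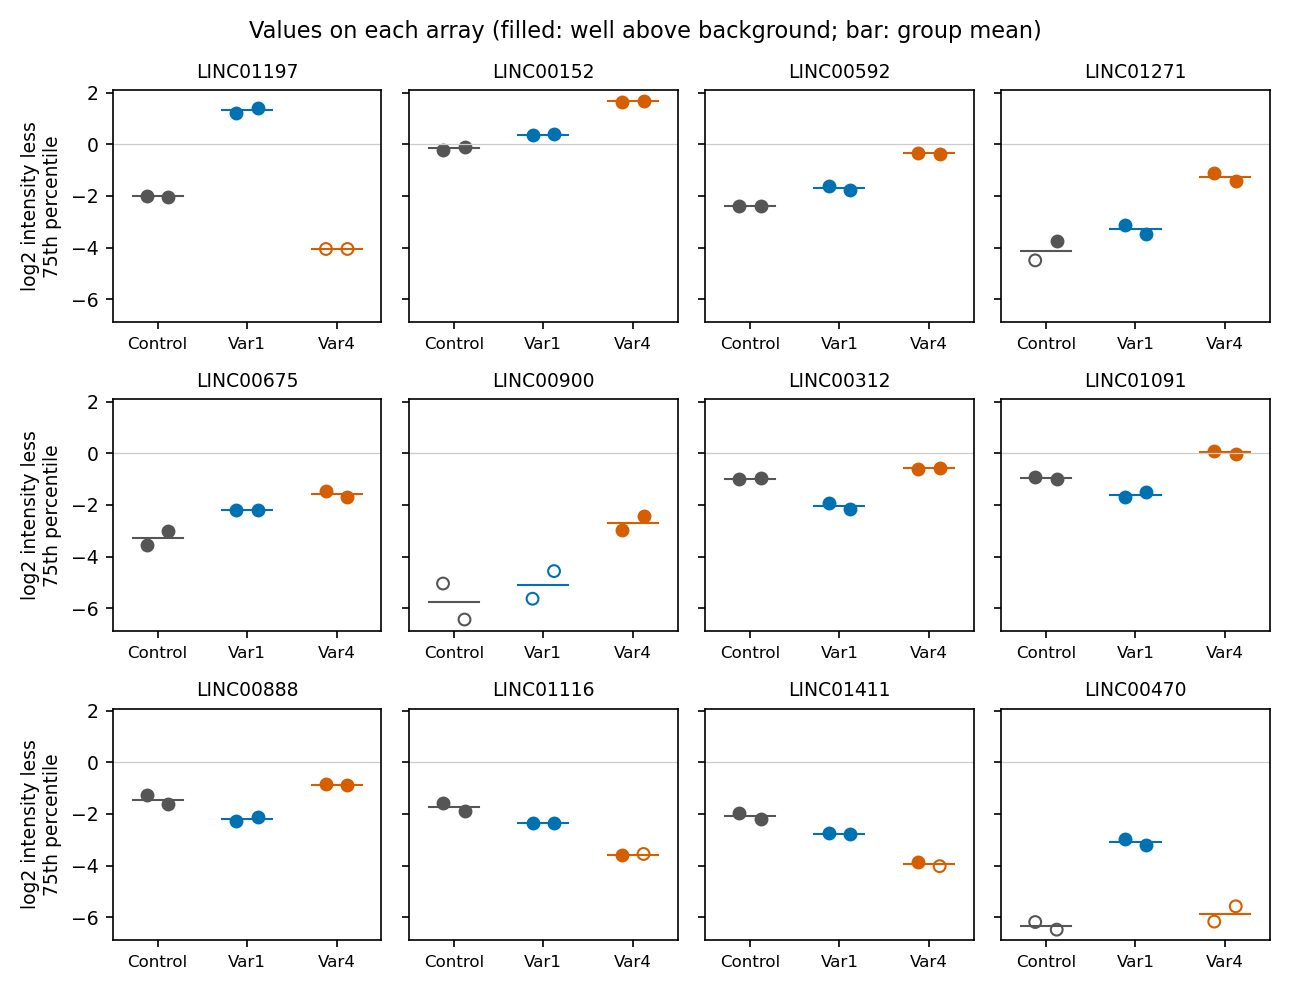
Values of 12 LINC genes on each array, 1 panel per gene, as log2 intensity less the array's 75th percentile, with a bar at each population's mean. Filled points were well above background and open points were not. LINC01197 separates the 3 populations most, from -4.06 in Var4 to 1.40 in Var1, LINC00152 and LINC00592 step up from Control to Var1 to Var4, and LINC00312, LINC01091 and LINC00888 are lowest in Var1 and highest in Var4.

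Of the probes that fell in Var4, the upstream LINC01197 probe was at -4.06 on both arrays and at least 3.52-fold lower than in Control (limma adjusted p = 0.00223). It was the 1 LINC probe called against Control in opposite directions, while LINC00675, LINC01467 and LINC00933 were called higher in both. The 2 comparisons share the Control arrays. LINC01522, on chromosome 20 across a splice junction, read -4.00 and -3.34 in Control and -5.59 and -5.83 in Var4, at least 1.17-fold lower (limma adjusted p = 0.0124). LINC01522 lost this call without either Var4 array, with a highest adjusted p of 0.0631.

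LINC01116 and LINC01411 fell in Var4 in several probes each. All 4 LINC01116 probes were called, with log2 changes of -1.85, -1.61, -1.36 and -1.52 for probes 1 to 4, and limma adjusted p values from 0.00371 to 0.0121. Probe 4 read -0.54 and -0.60 in Control, -0.99 and -1.17 in Var1 and -2.23 and -1.94 in Var4, falling in that order without overlap. In Var1 the 4 changes ran from -0.94 to -0.51. None was called, each being under 2-fold, but 3 of the 4 had a limma adjusted p under 0.05. For LINC01411, probe 3 read -1.97 and -2.19 in Control, -2.76 and -2.78 in Var1 and -3.88 and -4.02 in Var4 (log2 change in Var4 -1.87, limma adjusted p = 0.00333). Probe 2 changed by -1.48 (adjusted p = 0.00542), and probe 1, which was well above background on 3 arrays, by -0.62 and was not called. LINC00965 was at least 1.20-fold lower in Var4 (limma adjusted p = 0.00411), and LINC00685, which read -1.06 and -0.53 in Control and -2.49 and -1.89 in Var4, had a log2 change of -1.39 (adjusted p = 0.0291) that passed the threshold under 6 of 15 settings.

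Var4 and Var1 were compared directly, which does not use the Control arrays for the difference. In this comparison 50 LINC probes of 44 genes were called, 12 higher in Var4 and 38 lower, or 8.43% of the 593 against 6.88% of all tested probes, where 2.27% were higher and 4.61% lower. Among the 425 on all 6 arrays 23 were called, 10 higher and 13 lower, or 5.41% against 4.49%. With quantile normalization the 50 became 36, 20 higher and 16 lower, and the higher share over all tested probes went from 33.0% to 50.5%. At an adjusted p under 0.05 and any size, 72 LINC probes were higher in Var4 and 134 lower, 34.7% of the 593 against 41.2% of all tested probes. The upstream LINC01197 probe was at least 35.2-fold lower in Var4 than in Var1 (fitted log2 change -5.36, SE 0.075, limma adjusted p = 0.000474). LINC00470, LINC00934, LINC01204, LINC01524 and LINC01440, each well above background only in Var1, followed with fitted changes from -2.79 to -2.10. Their bounds ran from at least 1.76-fold to at least 2.75-fold lower, and LINC00934 and LINC01524 lost the call without either Var4 array.

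The LINC genes higher in Var4 than in Var1 included 3 that were highest in Var4 and lowest in Var1. LINC00312, with the values given above, differed by 1.44 (SE 0.090, limma adjusted p = 0.00171). LINC01091 probe 1 read -0.91 and -0.98 in Control, -1.69 and -1.52 in Var1 and 0.09 and -0.01 in Var4, and probe 2 read -0.64 and -0.73, -1.19 and -0.85, and 0.36 and 0.41. LINC00888 read -1.27 and -1.63 in Control, -2.29 and -2.13 in Var1 and -0.86 and -0.89 in Var4. In each of these probes no array of one population reached the range of another. Between Var4 and Var1 the log2 difference was 1.64 and 1.40 for the LINC01091 probes (limma adjusted p = 0.00133 and 0.00326) and 1.33 for LINC00888 (adjusted p = 0.00410). LINC01271 and LINC00592 were higher in Var4 than in Var1 by 2.03 and 1.34 (limma adjusted p = 0.00885 and 0.00136).

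Where a LINC gene had several probes, they did not always give the same call. Of the 390 genes, 263 had 1 detected probe, 81 had 2 and 46 had 3 or more, with 7 at most. Of the 46, 3 had a call in Var1 against Control, 7 in Var4 against Control and 10 in Var4 against Var1. Counted by probe, 3.95%, 3.18% and 6.88% of all tested probes were called. The share of genes with a call was not counted for the other genes of 3 or more probes. Every probe was called in 1 of the 7 (LINC01116) and in none of the 3 or the 10, and no gene had calls in both directions within a comparison. The downstream LINC01197 probe read -1.97 and -1.89 in Control, -1.90 and -1.99 in Var1 and -2.37 and -2.26 in Var4. Its log2 change was -0.02 in Var1, within the spread of the arrays, and -0.39 in Var4 (limma adjusted p = 0.0258), while the upstream probe moved in opposite directions.

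Of the 6 LINC01550 probes, 4 were called higher in Var4. Probe 3 read 0.61 on both Control arrays, 0.66 and 0.75 in Var1 and 1.89 and 1.91 in Var4, and probe 6 read -1.03 and -1.17, -0.75 and -0.70, and 0.28 and 0.29. In both, the Var4 arrays stood apart above the rest. The log2 change in Var4 was 1.32 and 1.28 for probes 1 and 2, 1.29 for probe 3 and 1.39 for probe 6, with limma adjusted p values from 0.00262 to 0.0137. Between them, probe 4 changed by 0.16 (adjusted p = 0.279) and probe 5 by 0.66 (adjusted p = 0.0375). LINC00673 (also called SLNCR, studied in melanoma) rose in Var4 by 1.45 in its probe at chr17:70399521-70399580 (limma adjusted p = 0.00427), while its other 2 probes changed by 1.00 (adjusted p = 0.0422) and 0.23 (adjusted p = 0.151). LINC00963 had 7 probes, of which 1 was called, higher in Var1 by 1.25 (limma adjusted p = 0.00385), and the other 6 changed by -0.29 to 0.47. With the called one, 4 of the 7 had a limma adjusted p under 0.05 in Var1. One LINC00667 probe, at chr18:5238273-5238332, read 2.79 on the first Var1 array and -0.33 on the second, against -0.29 to 0.02 on the other 4 arrays, and its change in Var1 was not called.

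**Figure D4:**
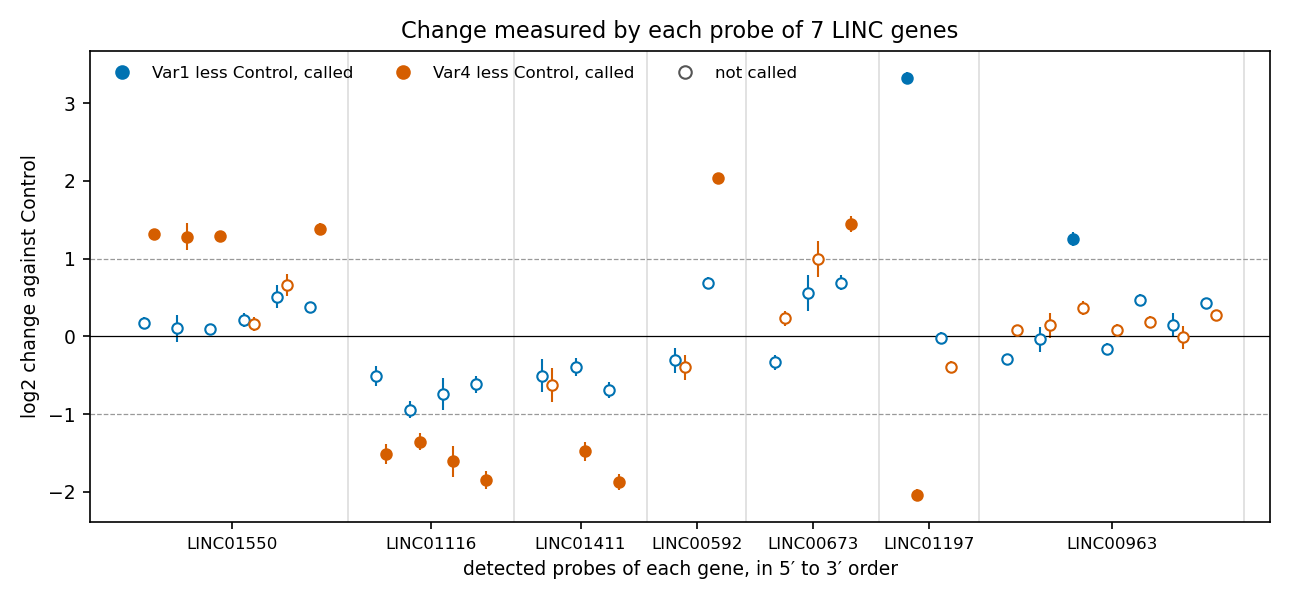
Log2 change against Control of every detected probe of 7 LINC genes, in 5′ to 3′ order within each gene, for Var1 (blue) and Var4 (orange), with bars of 1 standard error and dashed lines at a 2-fold change. Filled points were called. The 4 LINC01116 probes fell together in Var4, 4 of 6 LINC01550 probes were called higher in Var4, and in LINC01197 and LINC00963 a single probe was called.

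Of 9 LINC genes listed because they were later found to encode a small protein, 7 were detected, with 13 probes, all on all 6 arrays. At an adjusted p under 0.05, 0 of these probes rose and 3 fell in Var1, and 2 rose and 4 fell in Var4, where 34.4% and 24.2% of all tested probes passed. Between Var4 and Var1 4 were higher and 3 lower, where 41.2% of all tested probes passed. The median log2 changes in Var1 and Var4 were -0.05 and -0.09 against -0.04 and -0.08 for all tested probes. Called against Control was 1, a LINC00087 probe (a SMIM10L2 gene, for small integral membrane proteins) that read -1.37 and -1.48 in Control, -1.69 and -1.48 in Var1 and -2.52 and -2.69 in Var4 (log2 change -1.18, limma adjusted p = 0.00627). LINC00116 (now MTLN, which encodes the mitochondrial peptide mitoregulin) read 5.75 and 5.74 in Control and 6.02 on both Var4 arrays (log2 change 0.27, limma adjusted p = 0.0235). LINC00493 (now SMIM26, also a mitochondrial small protein) rose by 0.26 in Var4 (adjusted p = 0.0349). For LINC01420 (now NBDY, a small protein of the mRNA decapping machinery) the changes against Control ran from -0.09 to 0.03 over 2 probes, and for LINC00998 (now SMIM30) they were -0.06 and 0.09, none of them past the threshold. Over the 19 genes that are now protein coding, with 30 probes, 3 probes were called in each comparison with Control and 4 in Var4 against Var1, where 3.95%, 3.18% and 6.88% of all tested probes were called.

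Of 24 LINC genes listed for their known expression or study in breast cancer, 21 were on the array and 14 were detected, with 28 probes. In Var1, 7 of these probes rose and 1 fell at an adjusted p under 0.05, and in Var4 7 rose and 4 fell, where 34.4% and 24.2% of all tested probes passed. The medians were 0.11 and 0.15, against -0.04 and -0.08 for all. Called were 1 in Var1 and 3 in Var4, where 3.95% and 3.18% of all tested probes were called. LINC01133, which binds the splicing factor SRSF6, rose in both populations: one of its probes read -0.59 and -0.62 in Control, 0.36 and 0.20 in Var1 and 0.25 and 0.31 in Var4. Neither population overlapped Control, but each change was under 2-fold, at 0.89 in Var1 and 0.89 in Var4 (limma adjusted p = 0.00457 and 0.00573), and 0.90 and 0.76 in the second probe (adjusted p = 0.00311 and 0.00427). LINC01087 rose in Var1 by 1.23 and 0.66 in its 2 probes (limma adjusted p = 0.0227 and 0.0278), of which the first was called. LINC00472, low levels of which are known from aggressive breast tumors, fell in Var4 by 1.01 in 1 of 3 probes (adjusted p = 0.00953). LINC00467 rose in Var4 in both probes, by 0.57 and 0.67 (adjusted p = 0.0233 and 0.0141), and LINC00993 fell in both, by 0.31 and 0.32 (adjusted p = 0.0358 and 0.0161). LINC00657 (NORAD, which binds Pumilio proteins) changed by 0.07 and 0.16, short of the threshold. LINC00632, from whose locus the circular RNA CDR1as is made, was the 1 detected gene of 4 listed hosts of small or circular RNAs, and neither of its 2 probes was called.

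The nuclear exosome and its cofactors degrade many noncoding transcripts. The list for nuclear RNA decay held 23 symbols, with SKIV2L2 and MTREX as the older and current symbols of the same gene. Of these symbols, 22 were on the array and detected, with 29 probes. None was called by limma in Var1 against Control, Var4 against Control or Var4 against Var1, where 3.95%, 3.18% and 6.88% of all tested probes were called. In the same order, 13, 17 and 16 of the 29 had an unadjusted p under 0.05, a share not counted for all tested probes. At an adjusted p under 0.05, 2 of the 29 rose and 7 fell in Var1, and 2 rose and 6 fell in Var4. Of all tested probes 34.4% and 24.2% passed. The medians were -0.08 and -0.13 against -0.04 and -0.08 for all. Between Var4 and Var1, 5 were higher in Var4 and 9 lower, where 41.2% of all tested probes passed. The largest change was that of EXOSC7, an exosome subunit, at -0.77 in Var1 (limma adjusted p = 0.00410).

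LINC genes were set beside the nearest tested gene with an established name, by hg19 probe positions, at a median distance of 73.9 kb over 591 pairs. Across these pairs the log2 changes of the LINC probe and of its neighbour had Pearson correlations of 0.00 for Var1, -0.02 for Var4 and 0.04 for Var4 against Var1, given as a description, since the pairs come from the same 6 arrays and often share a gene (401 distinct gene pairs). The neighbour was itself called for 2 of the 28 LINC probes called in Var1, 2 of the 36 in Var4 and 6 of the 50 in Var4 against Var1, against 26, 15 and 43 of all 591 neighbours. For 15, 8 and 24 of these called LINC probes the neighbour had an adjusted p under 0.05. Over all tested probes 34.4%, 24.2% and 41.2% passed this limit. The neighbour changed in the same direction for 5, 2 and 9 of these LINC probes and in the opposite direction for 10, 6 and 15. The split over all 591 pairs was not counted, so whether this one is particular to called LINC probes was not tested. LINC00312 and LMCD1, a LIM domain protein gene 5.63 kb away on the same strand, both stood higher in Var4 than in Var1, by 1.44 and 1.45 (limma adjusted p = 0.00171 and 0.00120). LMCD1 changed by -0.33 in Var1 and by 1.11 in Var4 against Control. LINC00888 and B3GNT5, a glycosyltransferase gene at 175 kb, were higher in Var4 than in Var1 by 1.33 and 1.20 (adjusted p = 0.00410 and 0.00142), and CADM1, a cell adhesion gene at 524 kb from LINC00900, by 1.04 (adjusted p = 0.0153). LINC00900, not well above background on either Var1 array, was at least 2.52-fold higher in Var4 than in Var1 (limma adjusted p = 0.0367), a call lost without any 1 of these 4 arrays, with a highest adjusted p of 0.139. In the opposite direction, SULF2, an extracellular sulfatase gene at 327 kb from LINC01522, was 2.05 higher in Var4 than in Var1 (limma adjusted p = 0.00112), where LINC01522, not well above background on either Var4 array, was at least 1.06-fold lower (adjusted p = 0.00795), and HSPB8, a small heat shock protein gene near LINC00934, was 1.09 higher in Var4 than in Var1 (adjusted p = 0.00146).

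**Figure D5:**
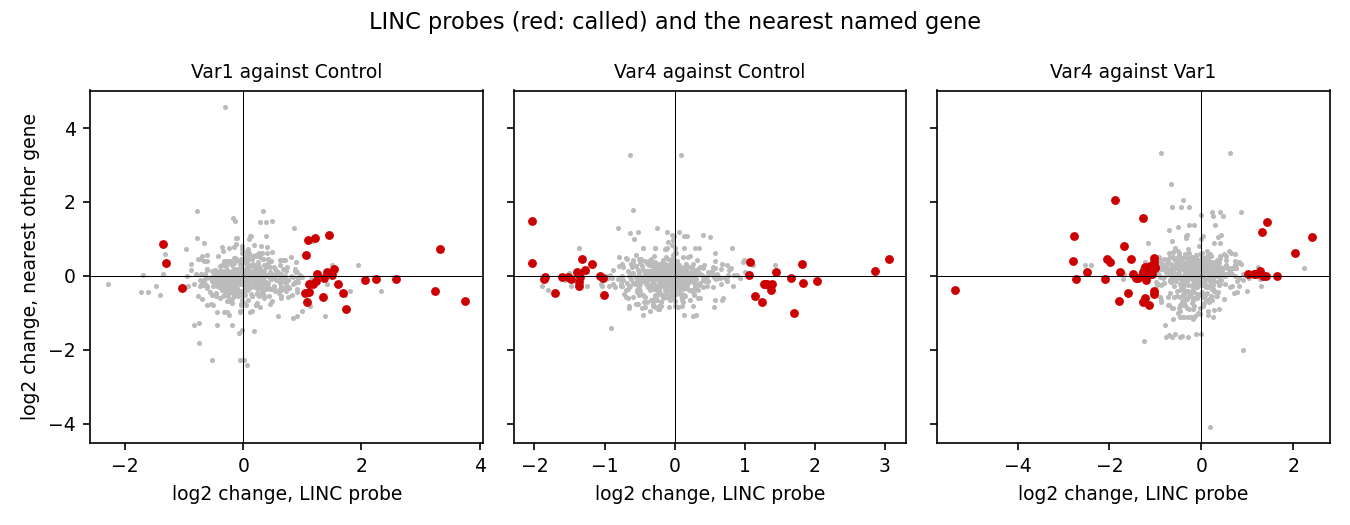
Log2 change of each LINC probe (horizontal) and of the nearest other gene with an established name (vertical) for 591 pairs, 1 panel per comparison, with called LINC probes in red. The points spread along the axes and not along a diagonal, with Pearson correlations of 0.00, -0.02 and 0.04.

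By chromosome, the counts of called LINC probes are given beside 4.72%, 6.07% and 8.43% of all 593 in Var1 against Control, Var4 against Control and Var4 against Var1. In Var4 against Control, chromosomes 2 and 14 had 6 calls each among 50 and 30 LINC probes, of which 4 on each came from a single gene (LINC01116 and LINC01550). Chromosome 20 had 4, 3 and 6 calls among 23 probes in the 3 comparisons, in the same order, and among all tested probes 3.95%, 3.18% and 6.88% were called. RefSeq start windows, 250 bases before and 50 after the transcription start on GRCh38.p14, were matched by symbol for 301 of the 389 distinct current symbols. Their median GC content was 54.3%, against 58.3% for all 27305 genes with a window. The E-box CACGTG, which reads the same on both strands, stood in 27 of the 301, or 8.97%, against 8.77% of all windows, and ACGTG, which lies within CACGTG, on either strand in 27.6% against 24.9%. The estrogen response element (GGTCA, any 3 bases, TGACC) and a direct repeat bound by nuclear receptors of the NR2F family (AGGTCA, any 1 base, AGGTCA) were in none of the 301 on either strand and in 0.0732% and 0.0293% of all windows. Of the 55 called genes with a window, 7 held CACGTG.

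The start windows of 3 called genes are shown, for LINC01197 and LINC01116 because their probes moved furthest or together, and for LINC00675 because it was called in both comparisons with Control and holds CACGTG. LINC01197 (LETR1) starts on the minus strand within chr15:95327051-95327350 and LINC01116 on the minus strand within chr2:176637560-176637859. In these 2 windows the capitals mark the 50 transcribed bases. LINC00675 (TMEM238L) starts on the minus strand within chr17:10804050-10804349, where the capitals mark the E-box. All 3 positions are on GRCh38.p14.
LINC01197 start window: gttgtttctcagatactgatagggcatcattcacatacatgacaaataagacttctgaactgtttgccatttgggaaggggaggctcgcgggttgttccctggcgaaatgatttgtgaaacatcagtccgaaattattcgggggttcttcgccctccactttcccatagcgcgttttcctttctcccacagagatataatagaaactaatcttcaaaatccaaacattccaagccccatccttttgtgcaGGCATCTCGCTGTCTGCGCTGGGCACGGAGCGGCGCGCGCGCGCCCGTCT
LINC01116 start window: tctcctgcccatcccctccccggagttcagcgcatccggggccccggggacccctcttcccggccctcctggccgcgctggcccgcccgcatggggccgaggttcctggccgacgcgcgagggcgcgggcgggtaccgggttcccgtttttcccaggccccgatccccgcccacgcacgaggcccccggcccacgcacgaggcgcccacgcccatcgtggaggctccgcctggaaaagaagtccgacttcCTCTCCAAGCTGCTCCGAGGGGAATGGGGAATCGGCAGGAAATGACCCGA
LINC00675 start window: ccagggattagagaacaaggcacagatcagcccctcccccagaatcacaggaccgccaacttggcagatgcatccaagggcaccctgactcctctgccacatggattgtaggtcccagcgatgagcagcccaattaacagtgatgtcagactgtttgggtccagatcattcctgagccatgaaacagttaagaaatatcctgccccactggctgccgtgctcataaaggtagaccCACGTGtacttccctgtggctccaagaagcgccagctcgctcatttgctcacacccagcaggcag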

How the data were processed

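BT474 cells of 3 populations were measured on 6 one-colour Agilent arrays, 2 for each of Control, Var1 and Var4, grouped by the sample labels. The deposited scanner files hold background-corrected, processed intensity for each spot, made by the authors with Agilent Feature Extraction 11.5.1.1, and the deposited table holds the authors' log2 values after a shift to the 75th percentile. Control spots and spots marked as outliers were dropped, and spots of 1 probe were averaged. Log2 processed intensity less the array's 75th percentile over non-control probes was analysed. The 31863 probes that passed the detection rule given for the LINC probes were tested. The test was limma 3.58.1 in R 4.3.3, with 1 mean per population, empirical Bayes variances and Benjamini-Hochberg adjustment over all tested probes; 6 arrays leave 3 residual and 1.53 prior degrees of freedom, and their number limits the precision. The fit was tested on simulated data.

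Named genes were the 6 largest rises and 6 largest falls per comparison among called LINC probes whose arrays did not overlap, 1 probe per gene, the members of the lists, genes with 3 or more detected probes, the neighbours and NR2F1-AS1, with exceptions stated in the text. The lists covered small proteins, breast cancer, host genes and nuclear RNA decay. The LINC genes, the lists and the tests were chosen with earlier results of these data known. The alternatives were quantile normalization, normexp correction of the background (offset 50), 2 other filters, the authors' table, a replicate block and other variance models. Further ones were only the populations compared, an analysis of variance after the methods but with adjusted p values, distinct gene names and leaving out each array. The array design number in the files differs from that in the methods, and the sources used here do not say which of the study's empty plasmids the Control cells carried. Gene names were matched to RefSeq by symbol and older symbol. Probe positions are hg19 as in the files. The promoter sequences are RefSeq's.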

Additional observations from a re-analysis of the deposited data

How the results depend on the processing

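The counts of called LINC probes changed most with the background correction. The main counts were 28 for Var1 against Control, 36 for Var4 against Control and 50 for Var4 against Var1, and 10, 17 and 23 among probes on all 6 arrays. Normexp background correction left 1, 3 and 2, and 0, 3 and 1 on all 6 arrays. Over all 31863 tested probes the calls also fell with it, from 1260, 1013 and 2191 to 172, 153 and 364. In limma with this correction 193 of the 425 LINC probes on all 6 arrays had an unadjusted p under 0.05 in Var1 against Control and 167 an adjusted one. The largest of their fitted log2 changes was 1.17 in size, and none met both limits of a call. Outside the 425, LINC01197 changed by 1.97 in Var1 in place of 3.32 and was called. LINC00152 in Var4 and LINC01197 in Var4 against Var1 were also called. Fitting all non-control probes without the filter left 13, 15 and 33, with 6 and 10 on all 6 arrays against Control. Over all 58201 probes this fit gave 1019, 494 and 1890 calls. A one-way analysis of variance after the methods left 14 for Var1 against Control, with 6 on all 6 arrays, and 33 for Var4 against Var1. It used the detection filter and an adjusted p, while the methods name no adjustment. Over all 31863 tested probes it gave 876 and 1603 calls in these 2 comparisons. Restricting the fit to probes on all 6 arrays gave 10, 17 and 23. The cause of the lower counts was not tested. Leaving out 1 array gave 20 to 33, 23 to 32 and 39 to 49 calls, and 8 to 16, 12 to 16 and 16 to 26 on all 6 arrays. The lowest of Var4 against Control, 23, came without the second Control array, and 16 in Var1 against Control without the second Var1 array. Every other setting kept these counts within 1.5 times. With a replicate block the counts were 28, 35 and 48, and the letters A and B share only a name: deviations of same-lettered arrays correlated at 0.05, -0.01 and -0.02. Single results were followed across settings for the changes named by the rule, their neighbours, NR2F1-AS1 and the lists other than nuclear RNA decay. Among these, no change with an adjusted p under 0.05 reversed. Of the changes named by the rule, 4 of 9, 5 of 12 and 9 of 12 passed an adjusted p of 0.05 in limma or the analysis of variance under every setting. Leaving out 1 array moved 215 of 1236 single results below the threshold and 12 above it.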
